A study of Mus musculus with 26 samples.

Results

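Zfp352, Sp110, Gm4340 and Gm17895 are 4 genes of unrelated families that are transcribed with the 2-cell (2C) program in mouse embryonic stem cells (ESCs). They were picked by name out of the 55291 genes of the count table, with earlier results on their levels known, so that their levels are given here as a description, without p-values. Where the text says that one of them was called, this repeats the outcome of the fit over all genes on values known when the genes were chosen, and nothing is read from it in any comparison. All 4 passed the filter on low counts that left 20953 genes for testing. The data are poly(A) RNA-seq counts of R1 ESCs, a mouse line kept in LIF, in 26 libraries that form 13 groups of 2 replicates.

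The groups were untreated ESC (no agent), DMSO, retinoic acid (RA, 0.53 µM for 48 h), pladienolide B (PlaB, a splicing inhibitor, 4 nM for 4 days), and 3 transgenic groups induced with doxycycline (4 µg/mL, 24 h), namely Dux OE with Dux, Zscan4 OE with Zscan4, and Dux R70A OE with a Dux variant that has an arginine-to-alanine substitution. RA, PlaB and Zscan4 OE were also sequenced with Dux knockdown by shRNA (Dux KD), and RA, PlaB and Dux OE with a knockout of the Tdpoz super-enhancer (SE KO). DMSO was the control of RA and PlaB, and ESC that of the overexpressing cells, which therefore differed from their control in doxycycline as well as in the transgene. Every wild-type group had the genotype label WT, also the cells with a transgene. The promoter of the transgenes, the sequence of the shRNA and whether a line was 1 clone are not given in the sources used here, and the labels do not say whether replicates came from separate cultures, so p-values measure the spread between these libraries, which may be technical.

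Some libraries stood apart or carried labels at odds with each other. The first SE KO RA library has SE KO in its title and WT as its genotype, so values in SE KO RA are also given without it. Both Dux KD Zscan4 OE libraries have the treatment label "no" and no time. Over the 10859 genes called for PlaB that were not called for Dux OE, the median share of the PlaB change was 0.119 in Dux KD PlaB and 0.251 in SE KO PlaB, beside 0.138 in untreated ESC, all measured against the same DMSO libraries. Over 5369 such genes of RA, it was 0.873 in Dux KD RA and 0.736 in SE KO RA, beside 0.297 in ESC. In Zscan4 OE the same measure was 0.467 with Dux KD, but DMSO cells, which had no transgene, reached 0.639 over the same 1666 genes. Library totals ranged from 14401452 to 39402840, and the SE KO Dux OE libraries were the deepest. All 12 pluripotency markers were detected in every group, with a summed level of 4087 to 10350 CPM (counts scaled to library size, with TMM factors). Against DMSO, 7 of them were called lower in PlaB, with 1 higher, and 8 were called lower in RA. The shares of all genes called lower were 26.6% and 10.4%. CPM below are given per library in the order of replicates 1 and 2. A count of 3 in a library was taken as the floor, which is 0.0796 to 0.226 CPM and covers counting error only.

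Dux is a double homeobox transcription factor that switches on the genes of zygotic genome activation, many of which have promoters derived from repeats. In culture a small fraction of ESCs enters this 2C-like state on its own, and Dux, Zscan4 family genes and the Tdpoz genes are among its marks. Zfp352 encodes a C2H2 zinc finger protein and is a classical marker of the 2-cell embryo. Sp110 encodes a nuclear body protein of the interferon-inducible Sp100 family. Gm4340 is a member of a tandem family related to Alyref, whose product is an adaptor for mRNA export. Gm17895 is annotated as a processed pseudogene, an intronless copy, and its closest relative is Npm1, which encodes the nucleolar protein nucleophosmin.

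The genes lie on 4 chromosomes. By the deposited table, Zfp352 is at chr4:90218820-90225702 (plus strand), Sp110 at chr1:85576899-85598817 (minus strand), Gm4340 at chr10:104194042-104196522 (plus strand) and Gm17895 at chr3:69954809-69955682 (minus strand), in mm10. Gm17895 is on the chromosome of the Tdpoz genes, 23.9 Mb from Tdpoz3.

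RefSeq promoter windows, from 250 bases before to 50 bases after each start in GRCm38.p6, were matched for 3 of the 4 genes, with a pair of windows for Sp110. The bases just before the start are shown for Zfp352, for the upstream start of Sp110 and for Gm4340, because these 3 genes share a stretch although they belong to different families. Capitals mark each copy of AACACACCTTTAATC, the longest run found in a window of each of the 3 genes, and each sequence is read along the strand of its gene and ends at the base before the start. The farthest copy of Zfp352 lies just beyond the part shown.
Zfp352 (chr4:90218680-90218819, plus strand): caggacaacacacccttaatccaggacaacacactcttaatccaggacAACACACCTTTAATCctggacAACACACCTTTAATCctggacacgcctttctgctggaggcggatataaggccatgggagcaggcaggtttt
Sp110 (chr1:85603892-85604081, minus strand): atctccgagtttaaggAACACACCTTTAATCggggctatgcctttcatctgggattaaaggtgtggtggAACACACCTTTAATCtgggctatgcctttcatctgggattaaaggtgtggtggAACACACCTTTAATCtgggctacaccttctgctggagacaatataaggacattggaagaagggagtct
Gm4340 (chr10:104193902-104194041, plus strand): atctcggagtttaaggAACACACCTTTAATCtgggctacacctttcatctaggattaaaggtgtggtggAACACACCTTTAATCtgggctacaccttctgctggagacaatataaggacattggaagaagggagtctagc

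The 15-base stretch was thus picked by comparing these windows. Over whole windows it occurred in full 3 times in Zfp352, 3 times at the upstream start of Sp110 and 2 times in Gm4340, always on the strand of the gene. Its first base lay 175, 92 and 71 bases before the start of Zfp352, 174, 121 and 68 bases before that of Sp110, and 124 and 71 bases before that of Gm4340. On either strand it was found in 23 of 32851 windows (0.07%), and 2 of these windows, those of Zfp352 and Sp110, held 3 copies. Without its first base it was found in 41 windows. Other incomplete copies were not counted. Between the marked copies, the parts shown for Sp110 and Gm4340 hold most of the stretch on the opposite strand. The windows of Sp110 and Gm4340 aligned over 303 columns with 236 identical bases, and each aligned with that of Zfp352 over 58 columns with 47 identical bases. The other window of Sp110, at chr1:85598761-85599060, held no copy. The upstream start lies 5074 bases beyond the end of the Sp110 model of the deposited table, so reads from a first exon there would not have been counted.

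Zfp352 was highest in Dux OE, at 83.4 and 84.0 CPM, and near the floor in untreated cells, with 3 and 0 counts in ESC. It was at 5.57 and 3.90 CPM in PlaB, 1.28 and 1.63 CPM in RA, and 1.23 and 1.47 CPM in Zscan4 OE. Both libraries of DMSO, Dux R70A OE and Dux KD Zscan4 OE had 0 counts. Relative to the floor, Dux OE exceeded ESC at least 433-fold, and PlaB exceeded DMSO at least 28.3-fold. In the order of group means, RA, SE KO PlaB, Zscan4 OE and Dux KD RA had overlapping replicates and could not be told apart.

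Sp110 was at 60.8 and 66.6 CPM in Dux OE, and its next highest group without a knockout was PlaB, at 13.7 and 11.5 CPM. Zscan4 OE gave 2.13 and 2.17 CPM, and RA 1.76 and 1.16 CPM. Untreated cells had few counts, 2 and 10 in ESC and 0 and 5 in DMSO, and Dux R70A OE had 4 and 3. The mean in Dux OE was thus 161-fold that in ESC, and the log2 fold change of 7.34 became 6.54 without the first ESC library and 8.89 without the second. The replicates of Zscan4 OE, Dux KD RA and RA formed a run of overlapping neighbours in the order of levels.

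Gm4340 had the highest counts of the 4 genes and the widest spread between replicates. It was at 400 and 205 CPM in Dux OE, 135 and 323 CPM in PlaB, 52.3 and 74.3 CPM in Zscan4 OE and 56.0 and 21.2 CPM in RA. The replicates of SE KO PlaB differed 3.80-fold, at 15.6 and 59.3 CPM, and those of RA 2.64-fold, whereas Dux KD RA gave 26.1 and 26.7 CPM. Unlike the other genes it was above the floor in every library, with 9.21 and 5.33 CPM in ESC, 1.93 and 2.03 CPM in DMSO and 0.268 and 0.314 CPM in Dux R70A OE. Replicates of Dux OE and PlaB overlapped, as did those of PlaB and SE KO Dux OE, so that the order of the 3 highest groups was not resolved.

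Gm17895 was at 21.9 and 22.6 CPM in Dux OE and below 2 CPM in every other group except SE KO Dux OE. It had 31 and 29 counts in PlaB, 0.837 and 0.465 CPM in RA, and 0.259 and 0.543 CPM in Zscan4 OE. It had 0 counts in both libraries of ESC and Dux R70A OE and in the Dux KD cells under PlaB or Zscan4 OE, and 0 and 1 in DMSO. The level in Dux OE was at least 115-fold that of ESC, and in Zscan4 OE, where it had 4 and 10 counts, at least 2.07-fold.

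**Figure D1:**
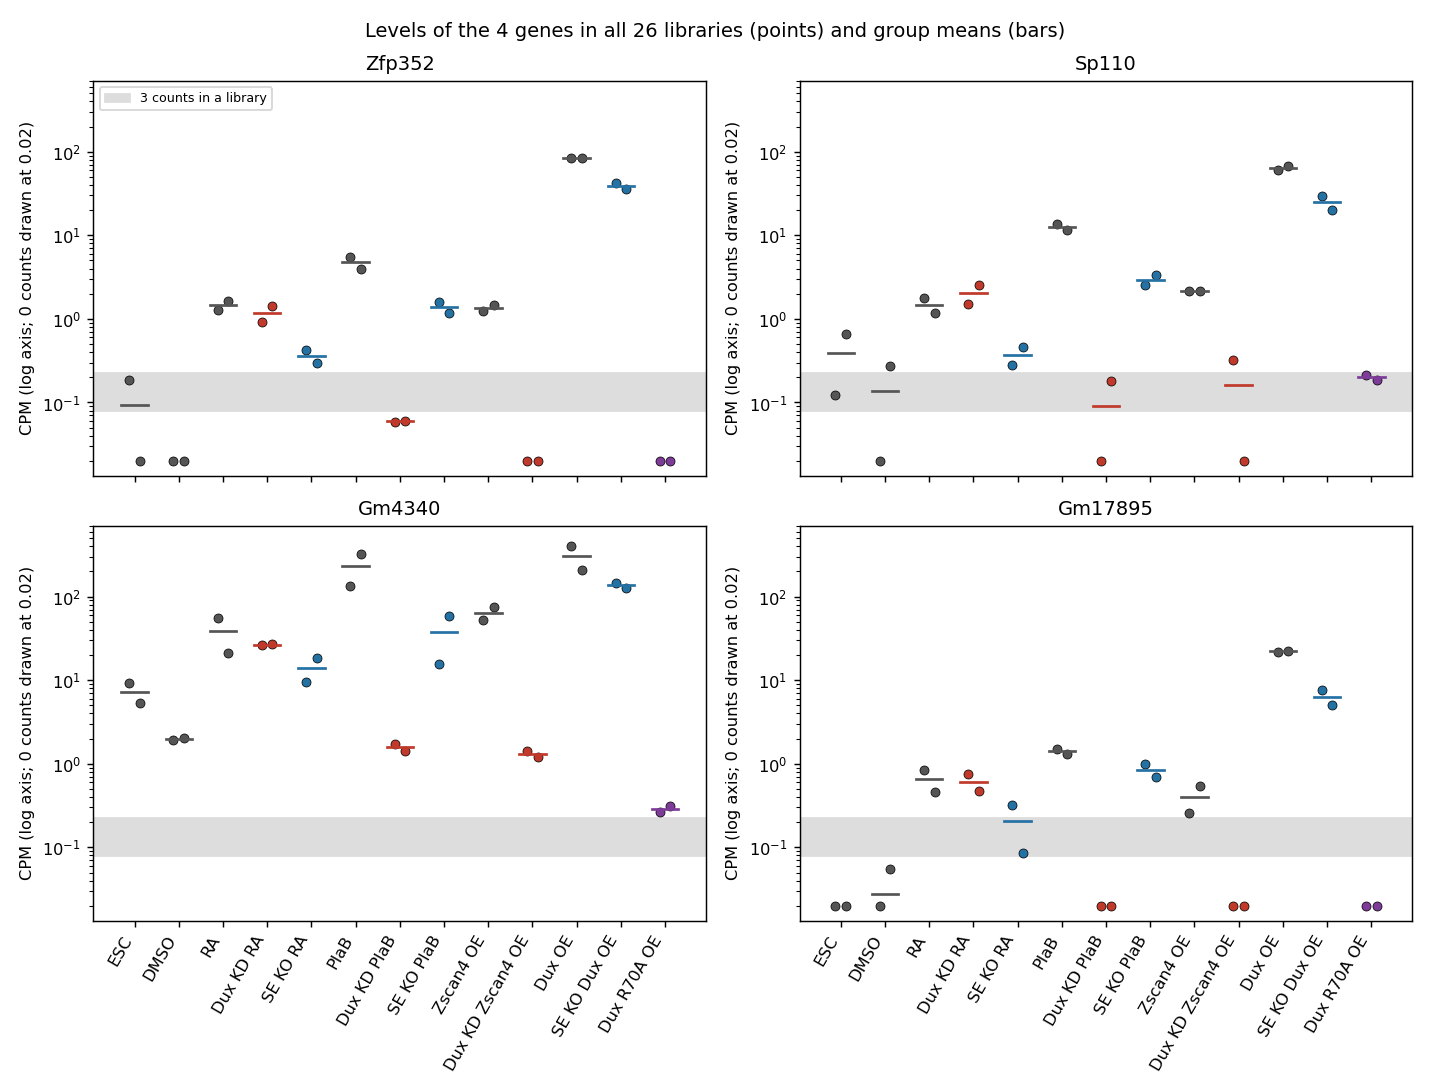
CPM (log axis) of Zfp352, Sp110, Gm4340 and Gm17895 in each of the 26 libraries (points) with group means (bars), in grey for groups without a knockdown or knockout, red for Dux KD, blue for SE KO and purple for Dux R70A OE. Libraries with 0 counts are drawn at 0.02, and the grey band spans the level of 3 counts over all libraries. The means of all 4 genes are highest in Dux OE, where the replicates of Gm4340 overlap with those of PlaB, and Gm4340 shows the widest gaps between replicates.

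Per kilobase of counted exon, the order of the genes in Dux OE differed from that in CPM. Gm4340 led with 232 ± 106 RPKM, followed by Zfp352 with 36.8 ± 0.209 RPKM, Gm17895 with 25.5 ± 0.508 RPKM and Sp110 with 9.40 ± 0.601 RPKM (SD, n = 2 each). The 6781 counted bases of Sp110, beside 874 for Gm17895, put the pseudogene above it on this scale.

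In each induction all 4 genes were called higher by edgeR's quasi-likelihood test (adjusted p under 0.05, with a change of 1 or more on the log2 scale), beside 32.3% of all tested genes in PlaB against DMSO, 20.6% in RA against DMSO, 7.25% in Zscan4 OE against ESC and 7.38% in Dux OE against ESC. Of 36 tested genes in a list of other 2C genes, 32 were called higher in PlaB, 30 in RA, 28 in Zscan4 OE and 33 in Dux OE, and none was called lower. The median log2 fold change of that list was 8.17, 6.12, 2.99 and 6.75 in the same order, beside medians over all genes of 0.22, 0.11, 0.00 and 0.00. That list too had been put together with results of these data known.

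The inductions ranked the genes differently. Zfp352, Gm17895 and Sp110 were all far higher in Dux OE than in PlaB, at means of 83.7 against 4.73 CPM, 22.2 against 1.41 CPM and 63.7 against 12.6 CPM. Gm4340 averaged 302 ± 137 CPM in Dux OE and 229 ± 133 CPM in PlaB (SD, n = 2 each), with overlapping replicates. Zscan4c showed the opposite order, with 810.7 and 809.8 CPM in Dux OE and 2673 and 2519 CPM in PlaB. Tdpoz3, whose family gives the super-enhancer its name, was at 35.3 and 38.4 CPM in Dux OE and 8.57 and 9.02 CPM in PlaB, as Sp110 was in direction.

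With Dux R70A OE in place of Dux OE the genes stayed at or near the floor. Zfp352 and Gm17895 had 0 counts in both libraries, at least 479-fold and at least 127-fold below Dux OE. Sp110, with 4 and 3 counts, was 316-fold lower and Gm4340, with 5 counts in each library, 1039-fold lower. All 4 were called lower than in Dux OE, beside 7.51% of all genes and 33 of the 36 other 2C genes. Against untreated ESC, Gm4340 was the gene of the 4 that was called lower (log2 fold change -4.63, standard error 1.18, beside 6.72% of all genes), from 148 and 80 counts to 5 and 5. Of the other 2C genes 22 were called lower in that comparison and none higher. Duxf3, the Dux gene of the table (chr10:58229979-58232675, minus strand), had 0 counts in both Dux R70A OE libraries. It had 55 and 48 counts in Dux OE and 3 and 0 in ESC. Whether counts on Duxf3 include either transgene, and whether both transgenes were expressed alike, could not be checked.

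Duxf3 was lower with Dux KD in each induction, to an unequal extent. It had 49 and 59 counts in RA and 16 and 6 in Dux KD RA, so that 25.9% of its mean level was left. It had 191 and 181 counts in PlaB, 1 and 0 with the knockdown, and 1 and 0 in DMSO. It had 27 and 17 counts in Zscan4 OE and 1 and 0 in Dux KD Zscan4 OE. Loss of Duxf3 through the shRNA and a weaker induction cannot be told apart in these counts.

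In RA the levels of all 4 genes overlapped between cells with and without Dux KD. Zfp352 was at 0.918 and 1.41 CPM in Dux KD RA, 80.2% of the mean in RA, with a fitted log2 difference of -0.32 (standard error 0.33). Sp110 was at 1.49 and 2.53 CPM, 138% of the RA mean, with a log2 difference of 0.45 (standard error 0.40). Gm4340 was at 68.5% of the RA mean (log2 difference -0.55, standard error 0.45) and Gm17895, at 0.746 and 0.471 CPM, at 93.5% (log2 difference -0.10, standard error 0.49). None of the 4 was called, beside 10.9% of all genes in either direction. The differences of Gm4340 and Gm17895 turned positive, 0.32 and 0.39, without the first RA library, which was the higher of the pair for both. A missing call at these counts does not show that the levels were alike.

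Among the other 2C genes, 8 of 36 were called lower and 1 higher with Dux KD in RA, beside 4.54% and 6.41% of all genes. Zscan4c kept 74.6% of its level, a log2 difference of -0.42 (standard error 0.09) that did not reach the fold threshold. Zfp353-ps, a pseudogene on chr8 and the closest relative of Zfp352, was named here after its values were seen. It had 18 and 9 counts in RA and 2 and 2 in Dux KD RA, at least 3.47-fold lower (edgeR adjusted p = 0.00807), where Zfp352 had 29 and 35 and then 16 and 24. The difference between these 2 effects was not tested.

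In PlaB with Dux KD, Zfp352, Sp110 and Gm17895 were at or near the floor and Gm4340 was below its level in ESC. Zfp352 had 1 and 1 counts in Dux KD PlaB, at least 26.6-fold below PlaB, and Sp110 had 0 and 3 counts, at least 70.8-fold below. Gm4340 went from 135 and 323 CPM to 1.71 and 1.43 CPM, 146-fold lower and just below its 1.93 and 2.03 CPM in DMSO. Without the second PlaB library its log2 difference moved from -7.18 to -6.41. Gm17895 had 0 counts, at least 7.91-fold lower. All 4 were called lower, beside 28.8% of all genes and 33 of the 36 other 2C genes. As given above, Dux KD PlaB cells showed a median share of 0.119 of the PlaB changes outside the genes called for Dux OE. The part of this in the levels here was not tested.

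In Zscan4 OE, Dux KD left Zfp352 and Gm17895 with 0 counts, at least 6.41-fold and at least 1.91-fold lower. Sp110 went from 33 and 40 counts to 5 and 0, and Gm4340 from 808 and 1369 to 22 and 16, 48.1-fold lower in CPM. All 4 were called lower, beside 5.35% of all genes and 28 of the 36 other 2C genes. Without the second Zscan4 OE library, which held 10 of the 14 counts of Gm17895 in that group, Gm17895 was not called. Zscan4c went from 99.9 and 103 CPM to 0.779 and 1.13 CPM with Dux KD, below its 5.73 and 6.13 CPM in ESC. Zscan4a, Zscan4b, Zscan4d and Zscan4e were also below ESC. Zscan4f stayed above ESC (3.11 and 2.13 CPM), at 16.03 and 13.23 CPM against 56.1 and 53.1 CPM in Zscan4 OE. Whether these counts include the Zscan4 transgene, and whether it was expressed in the knockdown cells, could not be checked. Neither the labelled treatment nor a time for the knockdown cells matches that of Zscan4 OE, and this cannot be told apart from the knockdown.

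**Figure D2:**
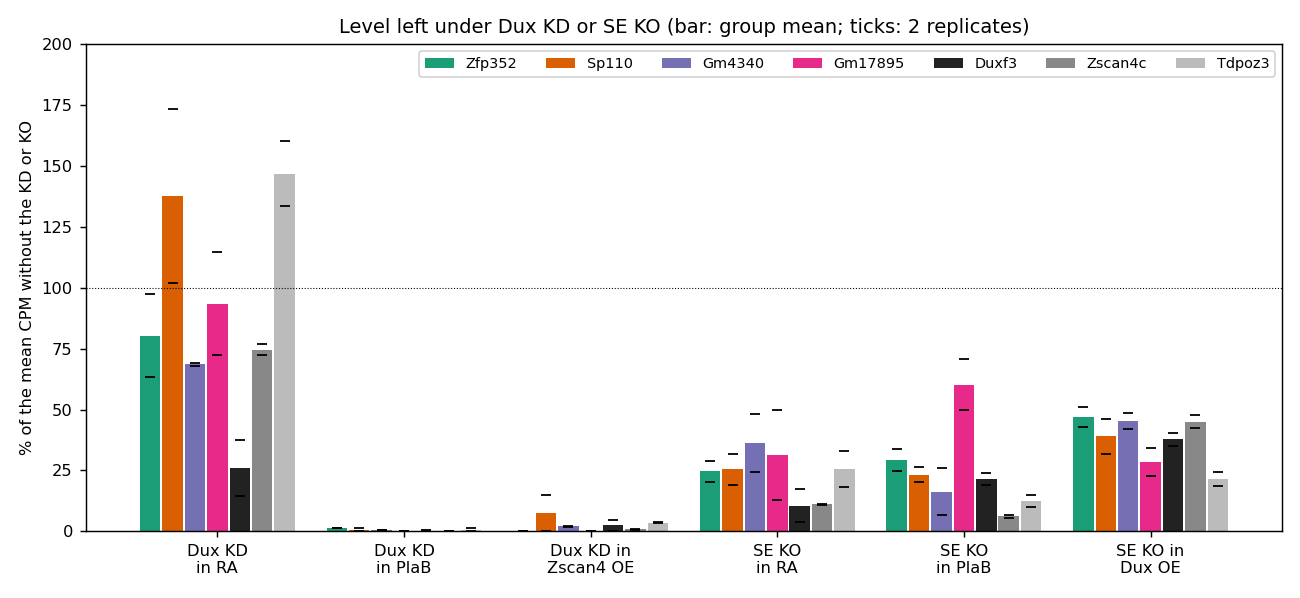
Level under Dux KD or SE KO as a percentage of the mean CPM of the same induction without it, for Zfp352, Sp110, Gm4340, Gm17895, the Dux gene Duxf3, Zscan4c and Tdpoz3. Bars are group means, ticks are the 2 replicates and the dotted line marks 100%. In RA with Dux KD the 4 genes kept 68.5% to 138% while Duxf3 kept 25.9%, and in the SE KO groups Duxf3 kept 10.5% to 37.7%.

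With SE KO, 11 of the 12 combinations of the 4 genes with the 3 inductions were called lower, all but Gm17895 in PlaB, and the levels mostly stayed above the floor. In RA, Zfp352 went from 1.28 and 1.63 CPM to 0.419 and 0.296 CPM, with 24.6% left, and Sp110 from 1.76 and 1.16 CPM to 0.279 and 0.465 CPM, with 25.4% left. Gm4340, at 9.44 and 18.6 CPM, kept 36.4%, and Gm17895, with 7 and 2 counts, kept 31.5%. Replicates of the groups did not overlap for any of the 4 genes, and all 4 were called lower, beside 11% of all genes and 26 of the 36 other 2C genes. The log2 differences were -2.01 for Zfp352, -1.95 for Sp110, -1.45 for Gm4340 and -1.68 for Gm17895. Without the SE KO library that is also labelled WT they were -2.27, -1.64, -1.05 and -2.86, and Gm4340 was not called. Without the first RA library, the higher of the pair for Sp110, Gm4340 and Gm17895, only Zfp352 was called of the 4, and Gm4340 moved to -0.58. Without the second SE KO RA library, which held 2 of its 9 counts in that group, Gm17895 was at -0.99 and not called.

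In PlaB, SE KO left 29.2% of Zfp352 (1.60 and 1.17 CPM), 23.3% of Sp110 (2.56 and 3.31 CPM) and 16.3% of Gm4340 (15.6 and 59.3 CPM). The log2 difference of Gm4340, -2.62, was -1.85 without the second PlaB library, -1.93 without the first SE KO PlaB library and -3.85 without the second. Gm17895 kept 60.2%, at 0.997 and 0.699 CPM in SE KO PlaB, and its log2 difference of -0.72 (standard error 0.39) was the one of the 4 that was not called, although replicates did not overlap. It rests on 23 and 15 counts beside 31 and 29. The other 3 were called lower, beside 26.1% of all genes and 26 of the 36 other 2C genes. Zscan4c kept 6.21% and Tdpoz3 12.4%. Zfp353-ps went from 24.0 and 22.7 CPM to 0.737 and 0.652 CPM, with 2.98% left (edgeR adjusted p = 2.59e-14), beside the 29.2% of Zfp352. In PlaB without a knockout Zfp353-ps exceeded Zfp352, and with it the order was reversed.

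In Dux OE, SE KO left the highest absolute levels. Zfp352 was at 42.6 and 35.8 CPM (46.9% left), Sp110 at 29.3 and 20.3 CPM (39.0%), Gm4340 at 147 and 128 CPM (45.4%) and Gm17895 at 7.59 and 5.10 CPM (28.5%). Replicates did not overlap for any of them, and all 4 were called lower, beside 3.84% of all genes and 10 of the 36 other 2C genes. The calls of Zfp352 and Gm4340 were close to the threshold, with log2 differences of -1.09 and -1.14. Gm4340 was not called without the first Dux OE library, where it was at -0.57, or without either SE KO Dux OE library (-1.25 and -1.02). Zfp352 was not called without the second SE KO Dux OE library (-0.95). Tdpoz3 kept 21.4%.

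Other measures moved with the SE KO. Duxf3 itself kept 10.5% in RA, 21.5% in PlaB and 37.7% in Dux OE (called lower in all 3). Whether these counts include the transgene in Dux OE could not be checked. SE KO PlaB cells showed a median share of 0.251 of the PlaB changes outside the genes called for Dux OE, beside 0.138 in untreated ESC. The 8 fibroblast markers summed to 118 and 120 CPM in SE KO Dux OE against 48.2 and 45.4 CPM in Dux OE. All 8 had at least 1 count in the former and 5 in the latter, but the SE KO Dux OE libraries were deeper. In SE KO PlaB they summed to 41.5 and 45.4 CPM against 21.3 and 28.3 CPM in PlaB and 35.9 and 35.1 CPM in DMSO. The 8 trophectoderm markers summed to 201 and 317 CPM in SE KO PlaB against 465 and 487 CPM in PlaB and 110.4 and 111 CPM in DMSO, and to 119 and 116 CPM in SE KO Dux OE against 190.5 and 197 CPM in Dux OE. Both lists went the other way in RA. Trophectoderm markers summed to 152 and 147 CPM in SE KO RA against 116 and 126 CPM in RA. Fibroblast markers summed to 58.4 and 54.6 CPM against 61.9 and 69.6 CPM. In SE KO RA the 12 pluripotency markers summed to 4151 and 4087 CPM against 5639 and 5699 CPM in RA, and the 12 markers of RA response to 195 CPM in each library against 273 and 278 CPM. In SE KO PlaB the latter summed to 61.6 and 73.7 CPM against 21.01 and 21.22 CPM in PlaB. The calls of single genes did not all follow these sums. In SE KO PlaB 2 of 7 tested trophectoderm genes were higher and 1 lower. Of 12 RA response genes 4 were higher and 3 lower, and of 6 fibroblast genes 1 and 1 (all genes: 25.9% and 26.1%). In SE KO Dux OE no trophectoderm gene was called, and 5 of the 6 fibroblast genes were higher (2.46% of all). Postn, on the fibroblast list, was above 3 counts in 2 of the 26 libraries. A gene could pass the filter through SE KO Dux OE alone, so that 5 of 6 is no rate for fibroblast genes. In SE KO RA 5 pluripotency genes were lower and 2 higher, and 3 RA response genes lower and 2 higher (11% and 6.57%). Of 7 tested trophectoderm genes 1 was lower and 3 higher there, and of 6 fibroblast genes 2 and 1. The part of these measures in the levels was not tested. In bulk RNA, fewer 2C-like cells and less RNA in each of them cannot be told apart, which holds for every level given here.

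DMSO and untreated ESC differed for Gm4340, at 1.93 and 2.03 against 9.21 and 5.33 CPM, a log2 difference of -1.88 (standard error 0.79) that was not called, beside 16.2% of all genes in either direction. It was called with DESeq2, without the filter on low counts, in a fit of the 2 groups alone and without the second ESC library. Zfp352, Sp110 and Gm17895 had at most 10 counts in any of these libraries. Of the other 2C genes 21 were lower in DMSO and none higher.

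The reads of the 4 genes could be assigned with unequal certainty, as judged on 1 transcript of each. Gm17895 shared no 50-base window with any other gene in GENCODE M21 transcripts, and its longest run in common with Npm1, to which it is 73.5% identical, was 24 bases. Npm1 kept 86.7% of its ESC level in Dux OE, while the pseudogene went from 0 counts to 301 and 334. Of the 100-base windows of Zfp352, 0.643% occurred in another gene, Zfp353-ps, and of its 50-base windows 7.09% in other genes. For Sp110, 37.2% of 100-base windows did, in 5 genes that included Gm16026 and G530012D18Rik, and 60.4% of 50-base windows, in 136 genes. These shares are of a transcript of 1921 bases, while the counted model has 6781, so the count of Sp110 is uncertain to an extent not measured here. For Gm4340, 94.5% of 100-base windows did, in 6 tandem copies on chr10 named Gm21293, Gm6763, Gm8764, Gm21304, Gm21312 and Gm20765.

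What sets Gm4340 apart from these copies is a repeat of 12 bases. The stretch around it is shown from base 838 of each transcript, with the extra bases in capitals.
Gm4340: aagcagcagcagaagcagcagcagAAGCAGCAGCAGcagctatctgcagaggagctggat
Gm21304: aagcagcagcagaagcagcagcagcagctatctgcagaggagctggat
The transcripts were otherwise identical, with 99.0% identity over 1258 aligned columns. Only 64 of the 1159 windows of 100 bases in Gm4340 were its own. In Dux OE Gm21304 had a mean of 0.74 CPM and Gm4340 302 CPM. How reads that match several places were counted is not given in the sources used here, so the level of Gm4340 may stand for more than 1 copy or for a part of its own reads. Adding the 6 copies to it moved its log2 difference by about 0.01 or less in each of the 13 comparisons. All 6 copies were 99.0% identical to Gm4340 over 1258 aligned columns. If reads that match several copies were left out, the copies would have few counts at any level of transcription. Neither their low counts nor the sum can therefore show which copies were transcribed.

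Family members of Sp110 were compared because the gene belongs to an interferon-inducible family. Of 4 tested relatives, Sp140, which lies beside Sp110 in the opposite direction, was at 18.2 and 18.4 CPM in Dux OE and 8.33 and 5.69 CPM in SE KO Dux OE. In RA it was at 1.54 and 1.91 CPM and in Dux KD RA at 2.30 and 1.94 CPM. Sp140 thus followed Sp110 through these groups, with 38.25% left under SE KO in Dux OE beside 39.0%. C130026I21Rik and A530032D15Rik were also called higher in Dux OE, and reads of the former share windows with Sp110. Sp100 behaved otherwise, with 1 and 0 counts in Dux OE, 78 and 52 in RA and 71 and 83 in Dux KD RA. With SE KO in RA Sp100 had 3 and 3 counts, at least 21.98-fold below RA (edgeR adjusted p = 6.07e-07).

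The interferon response list did not move with Sp110 in Dux OE. Of its 20 tested genes 1 was called higher and 1 lower there, beside 7.38% and 2.12% of all genes, and their median log2 fold change was 0.08. In RA 12 were called higher and 1 lower, beside 20.6% and 10.4% of all genes, with a median of 1.39. In PlaB 10 were higher and 3 lower, beside 32.3% and 26.6%, with a median of 1.63. Among 12 mRNA export genes of the TREX complex, to whose adaptor Gm4340 is related, none was called in Dux OE, and 4 were called higher and 1 lower in PlaB, a share close to the 32.3% of all genes that were higher there. Alyref was at a mean of 132 CPM in ESC and 90.9 CPM in Dux OE. It was at 19.3 CPM in PlaB, whose control is DMSO and not ESC. The median log2 fold change of the TREX list in PlaB against DMSO was 0.41.

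**Figure D3:**
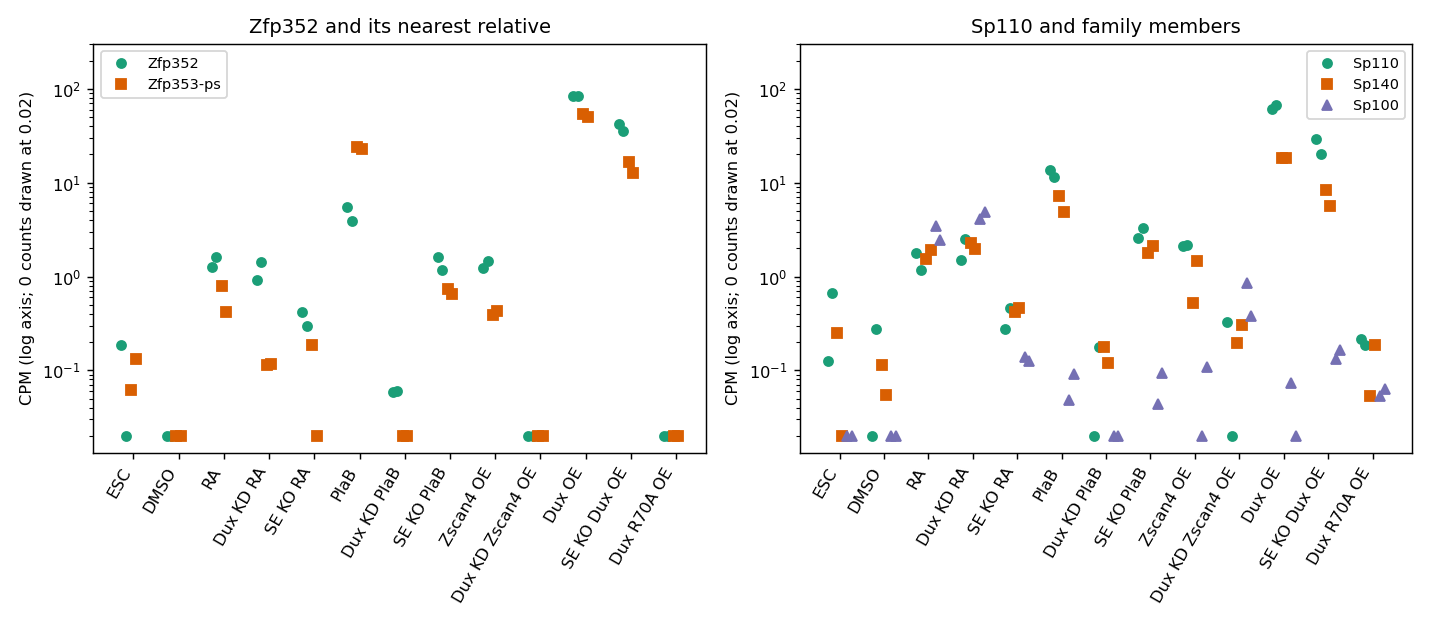
CPM (log axis, 0 counts drawn at 0.02) in each library for Zfp352 with Zfp353-ps (left) and for Sp110 with Sp140 and Sp100 (right). Zfp353-ps exceeds Zfp352 in PlaB and falls below it in SE KO PlaB, while Sp100 is highest in RA and Dux KD RA.

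The other genes with AACACACCTTTAATC in their RefSeq window offered values that had no part in picking the 4 genes. Leaving out the copies of Gm4340, there were 14 such genes, of which 8 were in the table and 6 passed the filter. Of the 6, 5 were called higher in Dux OE, beside 7.38% of all genes, and none lower. Over the 8 in the table, 6 were above 3 counts in both Dux OE libraries, 2 in both ESC libraries and 1 in both Dux R70A OE libraries. A gene could pass the filter through Dux OE alone, so that 5 of 6 is no rate for genes with the stretch.

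The highest of them was Eif4a3l1, a relative of the RNA helicase gene Eif4a3, with 472 and 476 CPM in Dux OE, 2.55 and 2.40 CPM in ESC and 161 and 160.0 CPM in SE KO Dux OE. Gm35974, which held 2 copies of the stretch, was at 46.9 and 48.6 CPM in Dux OE, had 4 and 1 counts in ESC and was at 22.3 and 14.1 CPM in SE KO Dux OE. Gm12724, also with 2 copies, was at 11.9 and 14.0 CPM in Dux OE, and Esp24 at 4.01 and 2.50 CPM, both with 0 counts in the ESC libraries. The exception was Pemt, an enzyme of phosphatidylcholine synthesis, with 5.83 and 5.07 CPM in Dux OE against 4.36 and 4.46 CPM in ESC. With Dux R70A OE in place of Dux OE, all 6 were called lower, beside 7.51% of all genes, and the same limit applies to this count and those that follow, since genes such as Gm12724 and Esp24 had 0 counts in Dux R70A OE. Under Dux KD none of the 6 was called in RA (4.54% of all genes were lower), 6 were lower in PlaB (28.8%) and 4 in Zscan4 OE (5.35%). Under SE KO 4 were lower in each of RA, PlaB and Dux OE, beside 11%, 26.1% and 3.84% of all genes. The letters are a description of the windows, and whether they are a binding site was not tested.

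**Figure D4:**
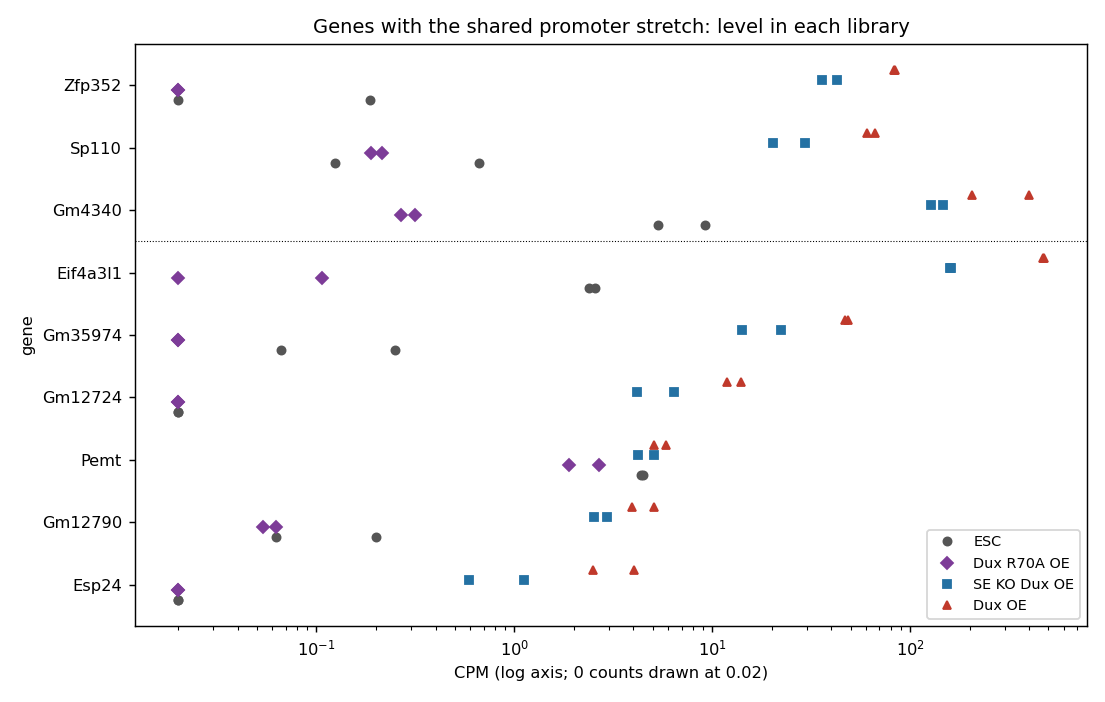
CPM (log axis, 0 counts drawn at 0.02) in each library of ESC, Dux R70A OE, SE KO Dux OE and Dux OE for Zfp352, Sp110 and Gm4340 (above the dotted line) and for the 6 other tested genes whose promoter window holds the shared stretch. In 5 of the 6 both Dux OE libraries lie above those of ESC by more than the replicates differ, and Pemt is the exception.

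Across the 13 group means of log2 CPM, the profiles of the 4 genes resembled each other, with Pearson r from 0.879 (Gm4340 and Gm17895) to 0.989 (Zfp352 and Gm17895). The group means share depth and the same few inductions, so these are descriptions. The closest other gene was D13Ertd608e for Zfp352 (r = 0.994), Gm50331 for Sp110 (r = 0.992), Gm5039 for Gm4340 (r = 0.989) and Gm13964 for Gm17895 (r = 0.995), out of 20949 genes. The next in line were Gm20767, Tcstv3, Gm43601 and AF067061 for Zfp352, and A530040E14Rik, Vmn2r12, Gm6999 and Vmn1r227 for Sp110. For Gm4340 they were Zscan4-ps3, Zscan4a, Zscan4b and Gm5662, and for Gm17895 Gm43601, Gm49858, Gm28826 and D13Ertd608e. Of the 5 closest to Gm4340, 3 were Zscan4 genes. Gm5039, Gm5662 and Zscan4-ps3 had higher means in PlaB than in Dux OE, as Gm5039 had with 1038 CPM against 697 CPM, and Zscan4a and Zscan4b lower ones.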

How the data were processed

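Poly(A) RNA-seq libraries of 26 samples in 13 groups were analysed, grouped by their titles. The authors deposited whole-number counts of reads per gene with exon length, without normalization; per the labels the tools included FastQC, Trimmomatic, STAR, featureCounts and DESeq2 with mm10, without versions, and strand and multi-mapping settings are not given in the sources used here. The genes and lists were chosen with earlier results of these data known.

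Counts were fitted with edgeR 4.0.16 in R 4.3.3 as 1 quasi-likelihood model of all groups, with TMM factors, filterByExpr and a prior count of 0.125. Calls needed a Benjamini-Hochberg adjusted p under 0.05 and a change of 1 or more on the log2 scale. The 4 genes received levels, folds and standard errors but no p-value. Standard errors were derived from the test, as the absolute log2 difference divided by the square root of its F statistic. Folds against a group with at most 3 counts per library are lower bounds. Chi-square per degree of freedom between replicates was 1.55 to 30.2, so none was a duplicate. Replicates differed most by this measure in SE KO PlaB (30.2) and Dux KD Zscan4 OE (26.1), followed by SE KO Dux OE (9.81).

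Named genes were the 4 genes, Duxf3, Zscan4c, Tdpoz3, relatives, list genes and, for each of the 4, the 5 genes most like it by Pearson r. Relatives were planned by RefSeq protein identity; as no protein table was used, transcripts of GENCODE M21 were aligned with blastn 2.17.0. The promoter stretch (first chosen by eye without its first base, then set as the longest shared run), relatives and response shares were added after the data were seen. Sequences are RefSeq GRCm38.p6 and GENCODE M21. RLE, library totals, no filter, DESeq2 1.42.0, 2-group fits, a replicate block and left-out libraries were the alternatives.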

Additional observations from a re-analysis of the deposited data

Results flagged for a closer look

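The differences of Sp110 with Dux KD had opposite signs between inductions, and the one in RA was not called. Both Dux KD RA libraries, at 1.49 and 2.53 CPM, lay above the RA mean of 1.46 CPM (log2 difference 0.45), and both knockdown libraries lay below the control mean in PlaB (-7.05) and in Zscan4 OE (-3.58). The RA replicates, at 1.76 and 1.16 CPM, overlapped with those of Dux KD RA, and the difference between the inductions was not tested.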

How the results depend on the processing

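Of 130 alternative counts of all genes called, 128 stayed within 1.5 times the reported one; Dux KD in Zscan4 OE gave 1547 in a fit of the 2 groups alone against 2331, and SE KO in Dux OE gave 794 to 1112 with 1 library left out against 1319. Of 130 counts of the 4 genes called, 7 went outside that limit. No called difference of the 4 genes changed sign. Log2 differences moved by the replicate SD of log2 CPM or more in 34 of 128 alternatives for Zfp352 and 17 of 128 for Sp110. For Gm4340 this was 11 of 143 and for Gm17895 38 of 125. Gm4340 was called in DMSO against ESC, making 1 of the 4, without the low-count filter, with DESeq2 and with the 2 groups alone, and leaving out 1 library gave 0 to 2 called there, 1 to 2 in Dux R70A OE against ESC, 1 to 4 for SE KO in RA and 2 to 4 for SE KO in Dux OE. Under DESeq2 Gm4340 was not called for SE KO in Dux OE. Scaling by library totals alone moved the share of calls that were higher from 66.5% to 76.7% in RA, 62.3% to 76.6% in Zscan4 OE, 60.4% to 77.5% in Dux R70A OE against ESC and 44.8% to 58.9% against Dux OE, and the median of all genes from 0.224 to 0.48 in PlaB. Same-numbered replicates did not deviate together (r from -0.0473 to 0.0237), and a fit with the replicate number as a block called 1976 genes in Dux OE against 1992 and changed no call of the 4 genes. Leaving out the low-count filter moved it from 39% to 50.1% for SE KO in Dux OE. Depth limits Gm17895 and the low groups of Zfp352 and Sp110, where a level rests on under 50 counts.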
